A study of Mus musculus with 4 samples.

Results

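Aminoacyl-tRNA synthetases were followed in testis RNA of FVB mice as 35 gene symbols of the 24420 in the deposited table. Of these, 20 name cytosolic and 15 mitochondrial enzymes of this family or their subunits. The members were chosen by name, without the mitochondrial leucyl enzyme Lars2, and all 35 were present and passed the filter on low values. The 4 libraries came from freshly isolated testis, 2 labelled lrrc8a MUT and 2 labelled WT. Lrrc8a encodes an essential component of VRAC, the anion channel that cells open when they swell, and the series concerns this channel in male infertility. Its own mRNA was at 13.49 and 15.86 CPM in MUT, against 18.21 and 17.15 CPM in WT, without overlap but not called (log2 fold change -0.26, limma adjusted p = 0.218). The labels give neither the kind of mutation nor the age of the mice, and do not say that replicates are separate animals. A p-value here thus weighs a difference against a spread between libraries that could be technical alone. In limma's fit that spread is partly shared, since each gene's value is drawn toward that of genes at a like level.

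Each synthetase joins 1 kind of amino acid to its tRNAs, the step that sets the genetic code before the ribosome reads it. Cytosol and mitochondria run separate protein synthesis, and most amino acids have a nuclear gene for each compartment. Gars and Kars make both forms from 1 gene, Eprs charges glutamate and proline with a single chain, and phenylalanine needs a pair of cytosolic subunits, Farsa and Farsb. In animals 8 of the cytosolic enzymes sit in a multi-synthetase complex. Many cytosolic members are induced by the transcription factor ATF4 when amino acids run short.

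None of the 35 members passed the test for a difference between genotypes. Lars2, the mitochondrial leucyl enzyme, is not among the 35 and did pass it. In limma's fit over 15364 symbols, 0 of the 35 were higher and 0 lower in MUT at an adjusted p under 0.05, against 0.749% of all tested symbols called in either direction (0.482% higher and 0.267% lower). The edgeR and DESeq2 tests on reads recovered from the table also called 0 of the 35. They had 6 and 5 members at an unadjusted p under 0.05, and the share of all symbols there was not computed for these tests. By limma, 2 members were higher and 4 lower at an unadjusted p under 0.05, beside 7.74% and 6.98% of all tested symbols. That is 6 of 35, beside 14.7%. The 95% interval of the difference lay within 1.5-fold in both directions for 34 of the 35, all except Wars2, and within 1.25-fold for 27. Among all tested symbols 14302 and 8378 of 15364 had intervals that narrow.

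The libraries held 48409785 reads in MUT 1, 40426400 in MUT 2, 68192776 in WT 1 and 50162558 in WT 2. Values are CPM, reads scaled to a common library size, and counting error in a member's CPM was smallest for Vars (0.477% to 0.646% of the value) and largest for Pars2, with 56 to 99 reads (10.1% to 13.4%). Germ cells are the labelled cell type and testis the labelled source. The largest marker sum was 16210 to 18210 CPM, over 9 elongating spermatid genes. Next were 8 meiotic prophase genes, at 3654 and 3768 CPM in MUT and 3786 and 3844 CPM in WT. Leydig, Sertoli, myoid, macrophage and endothelial markers were also present, with none at 0 in all libraries. Such sums cover different genes, so they do not measure the share of each cell type. The 8 Leydig markers summed to 1172 to 1208 CPM in MUT and 1004 to 1024 CPM in WT, and the 9 Sertoli markers to 934.0 to 964.2 CPM in MUT and 851.2 to 894.1 CPM in WT, with 1 marker called higher in each. The 7 round spermatid markers went the other way, with 2592 to 2695 CPM in MUT and 2842 to 2883 CPM in WT and none called. The 6 myoid markers (102.8 to 111.6 CPM in MUT, 119.8 to 127.7 CPM in WT) and the 5 endothelial ones (42.83 to 43.34 and 44.88 to 44.96 CPM) were also lower in MUT in sum, with none called. The 6 macrophage markers were higher in sum (78.36 to 78.77 and 72.84 to 72.98 CPM) with 1 called lower, and the 8 spermatogonial ones overlapped (94.92 to 96.79 and 84.83 to 95.5 CPM) with 1 called higher. The part of these shifts in the synthetase values was not tested, and in whole tissue fewer cells of a type and less RNA per cell cannot be told apart. The 4 erythroid globin symbols are listed at 0 in every library.

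Levels were compared between genes as CPM per kb of annotated exon, since a longer mRNA collects more reads. By this measure Vars, the cytosolic valyl-tRNA synthetase, stood alone at the top, at 113 CPM per kb over the 4 libraries, above 96.4% of 14778 tested symbols with a known length. Its lowest library, at 104 CPM per kb, was far above the highest library of the next member, the lysyl enzyme Kars, at 23.9 CPM per kb. In CPM, Vars was at 600.2 and 585.2 in MUT and at 651.4 and 687.6 in WT, and it supplied 29.1% and 28.8% of all CPM summed over the 35 members in MUT and 30.3% and 31.6% in WT. Vars lies on chromosome 17, plus strand, from 35000987 to 35016322 (GRCm38), and no exon of another annotated gene overlaps its exons.

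**Figure D1:**
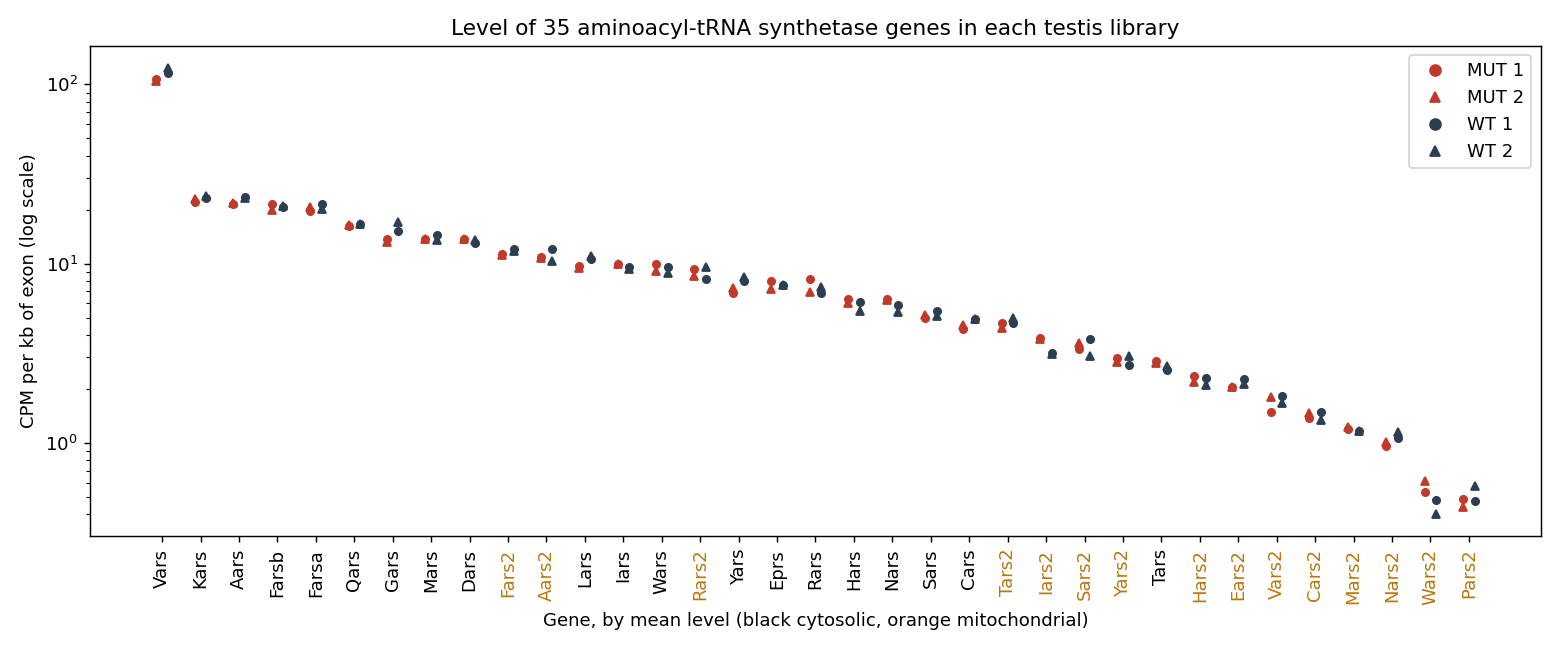
CPM per kb of exon (log axis) of each of the 35 synthetase genes in each library, ordered by mean level; circles are replicate 1 and triangles replicate 2, red MUT and dark blue WT, and gene names are black for cytosolic and orange for mitochondrial enzymes. Vars lies above 100 CPM per kb in every library, and Wars2 and Pars2 lie lowest.

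Below Vars the order was gradual. After Kars (23.1 CPM per kb) came the alanyl enzyme Aars (22.5) and the phenylalanyl subunits Farsb (20.7) and Farsa (20.5), and of the 34 neighbouring pairs in the order of levels 22 had library ranges that overlapped. Cytosolic members had a median of 9.95 CPM per kb and mitochondrial members 2.23. The lowest cytosolic member was the threonyl enzyme Tars, at 2.73 CPM per kb, between 2.55 and 2.88 in single libraries. Among mitochondrial members the phenylalanyl enzyme Fars2 (11.6) and the alanyl enzyme Aars2 (11.0) were highest, with overlapping ranges. The prolyl enzyme Pars2 (0.495) and the tryptophanyl enzyme Wars2 (0.509) were lowest and also overlapped. Exon lengths count every annotated exon of a gene. With the longest annotated transcript instead, Vars (153 CPM per kb), Kars (42.6) and Aars (36.4) remained the top 3, while Eprs, whose annotated exons span 18102 nt against a longest transcript of 5638 nt, moved from rank 17 to rank 8.

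Farsa and Farsb encode the alpha and beta subunits of 1 enzyme, which holds them in equal number, and their mRNA levels were nearly equal. Farsa was at 88.81 and 94.11 CPM in MUT, against 97.46 and 92.24 CPM in WT, on chromosome 8, plus strand, from 84856989 to 84869257. Farsb was at 56.13 and 52.21 CPM in MUT, against 54.03 and 54.93 CPM in WT, on chromosome 1, minus strand, from 78417975 to 78488897. Per kb of exon the Farsa to Farsb ratio was 0.913 and 1.04 in MUT and 1.04 and 0.97 in WT, so the genotypes overlapped. The log2 fold changes, MUT minus WT, were -0.05 (SE 0.0697, limma adjusted p = 0.781) for Farsa and -0.01 (SE 0.0744, limma adjusted p = 0.972) for Farsb.

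The 8 members of the multi-synthetase complex (Eprs, Iars, Lars, Mars, Qars, Rars, Kars and Dars) were within 3.14-fold of each other per kb of exon, from the arginyl enzyme Rars at 7.35 to Kars at 23.1. The 12 cytosolic members outside it, with Farsa and Farsb counted singly, covered 41.3-fold, from Tars at 2.73 to Vars at 113. That span rests on Vars, since the next of the 12 was Aars at 22.5. With the longest transcript as length the spans were 3.78-fold inside the complex and 38.8-fold outside it. Of the non-enzyme scaffold genes of the complex, Aimp1 was at 56.81 and 53.36 CPM in MUT, against 53.53 and 51.99 CPM in WT. Aimp2 was at 21.98 and 19.69 CPM in MUT, against 21.64 and 19.62 CPM in WT. Both overlapped between genotypes. Eef1e1, the smallest scaffold, was at 7.975 and 8.478 CPM in MUT, against 7.209 and 7.178 CPM in WT, without overlap but not called (log2 fold change 0.18, limma adjusted p = 0.467).

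For 15 pairings of a cytosolic with a mitochondrial enzyme for the same amino acid, in which Eprs stands for both glutamate and proline, the cytosolic mRNA was the higher per kb in 13. The median ratio was 2.81, or 2.93 with the longest transcript as length. The valine pair was the most unequal: Vars exceeded Vars2 by 71.8- and 57.7-fold in MUT and by 63.3- and 73.8-fold in WT. Among these 15, the reverse held for threonine, with Tars as the only cytosolic gene counted, and for arginine. Leucine is not among them because Lars2 is no member. Counts at Lars2 were above those at Lars, at 65.2 against 10.2 CPM per kb over the 4 libraries. Lars2 varied from 39.4 CPM per kb in MUT 1 to 101 in WT 1. Whether all reads counted at Lars2 come from the synthetase mRNA was not tested. Tars was at 0.621 and 0.64 of Tars2 in MUT and at 0.546 and 0.541 in WT. Rars was at 0.879 and 0.815 of Rars2 in MUT and at 0.826 and 0.776 in WT. Tarsl2, another threonyl-tRNA synthetase gene, is no member and is not counted with Tars. Over the 4 libraries it was at 1.76 CPM per kb, beside 2.73 for Tars and 4.66 for Tars2. A ratio with Tarsl2 added to Tars was not computed. The ratio did not overlap between genotypes in 8 of the 15 pairings, higher in MUT in 4 and lower in 4. Among all tested symbols, taken singly, 45.6% did not overlap, and no such share was computed for ratios of other genes. The ratios are descriptions, since the smallest two-sided p of an exact permutation test is 0.333 with 2 libraries a genotype.

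**Figure D2:**
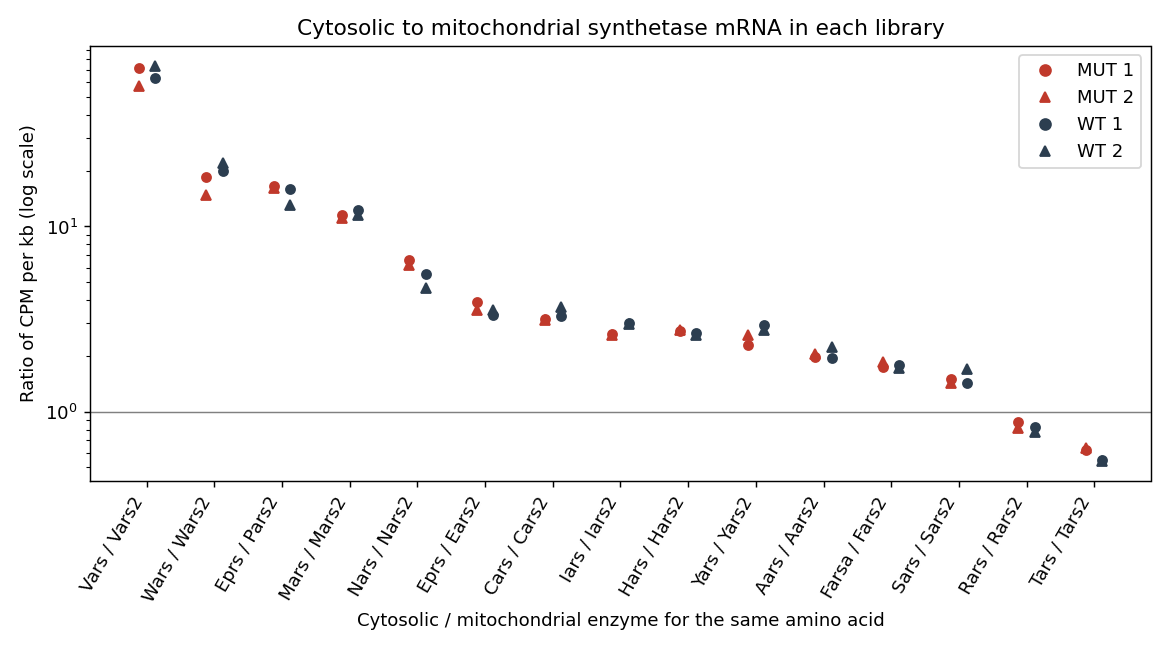
Ratio of cytosolic to mitochondrial synthetase mRNA per kb of exon (log axis) for each amino acid, with 1 point per library; the grey line marks equal levels. Ratios run from above 50 for Vars over Vars2 to below 1 for Rars over Rars2 and Tars over Tars2.

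Among the 20 cytosolic members the log2 fold changes ran from -0.26 to 0.17, 12 below and 8 above 0. The libraries did not overlap in 12 of them, 4 higher and 8 lower in MUT, where 45.6% of all tested symbols did not overlap (23.0% higher and 22.6% lower). The 4 lowest p-values belonged to members that were lower in MUT.

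Gars, the glycyl-tRNA synthetase of both compartments, was at 42.93 and 41.05 CPM in MUT, against 47.69 and 53.12 CPM in WT. Both MUT libraries were below both WT libraries. The difference was 0.836-fold (95% interval 0.745 to 0.938; log2 fold change -0.26, SE 0.0793, limma adjusted p = 0.133). Without WT 1 it was called (log2 fold change -0.34, limma adjusted p = 0.044), and without WT 2 it was -0.18 (limma adjusted p = 0.37). Gars lies on chromosome 6, plus strand, from 55038007 to 55079500.

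Vars, with the values given above, was also lower in both MUT libraries. The difference was 0.886-fold (95% interval 0.813 to 0.965; log2 fold change -0.18, SE 0.059, limma adjusted p = 0.173). With trends on GC content and transcript length removed per library, the log2 fold change of Vars was -0.09 (limma adjusted p = 0.42). Its longest transcript has a GC content of 60.9%, against a median of 49.4% over the 35 members.

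Yars, the tyrosyl enzyme, was at 40.53 and 43.73 CPM in MUT, against 47.36 and 50.04 CPM in WT, again with no overlap (0.866-fold, 95% interval 0.774 to 0.97, limma adjusted p = 0.216). Lars, the cytosolic leucyl enzyme, which also reports leucine to the growth kinase mTORC1, was at 52.28 and 50.65 CPM in MUT, against 56.73 and 58.83 CPM in WT (0.892-fold, 95% interval 0.802 to 0.992, limma adjusted p = 0.302). Both lay lower in every MUT library, and neither was called in any of the 18 alternatives.

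**Figure D3:**
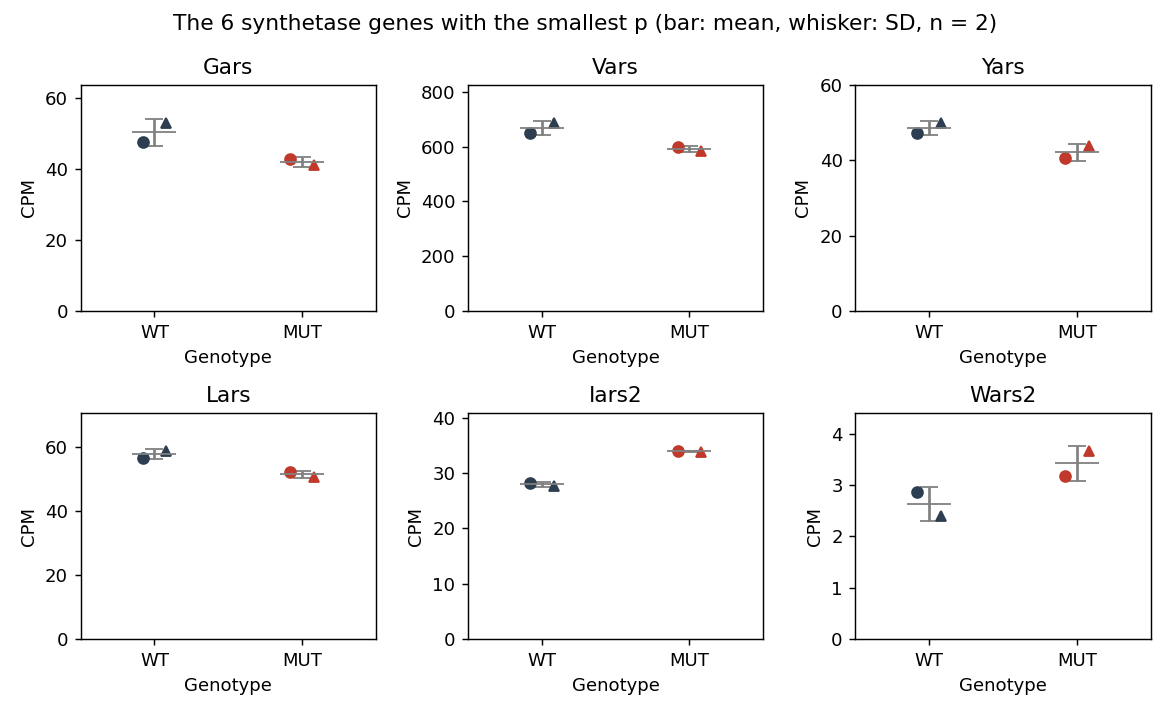
CPM of the 6 members with an unadjusted p under 0.05 in each library, by genotype, with the axis from 0; the grey bar is the mean and the whisker the SD of 2 libraries. Gars, Vars, Yars and Lars lie lower and Iars2 and Wars2 higher in both MUT libraries, and none passed the adjusted test.

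The 4 cytosolic members with the smallest p on the higher side were Nars, Tars, Iars and Hars. The asparaginyl enzyme Nars was at 27.55 and 27.46 CPM in MUT, against 25.6 and 23.38 CPM in WT (1.12-fold, 95% interval 0.991 to 1.27, limma adjusted p = 0.376). Tars was at 17.0 and 16.54 CPM in MUT, against 15.04 and 15.78 CPM in WT (1.09-fold, limma adjusted p = 0.586). In both the MUT libraries were the higher. The isoleucyl enzyme Iars was at 52.94 and 52.51 CPM in MUT, against 50.42 and 49.12 CPM in WT (1.06-fold, limma adjusted p = 0.643). For the histidyl enzyme Hars, at 15.62 and 14.73 CPM in MUT and 14.94 and 13.23 CPM in WT, the genotypes overlapped.

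The 20 cytosolic members together held 1767 and 1739 CPM in MUT and 1850 and 1885 CPM in WT, a difference of -6.16% in the mean. Without Vars the sums were 1167 and 1154 CPM in MUT and 1199 and 1198 CPM in WT, a difference of -3.17%. When reads were divided by each library's plain total, in place of the scaled size behind the deposited CPM, these differences were -4.22% and -1.18%. The median log2 fold change of the cytosolic members was -0.018, beside -0.002 for all tested symbols, and it turned to 0.010 with plain totals and to 0.004 without the 100 most abundant symbols in the totals. The median of all tested symbols moved alike, to 0.026 and 0.020, so this change of sign is a shift shared by all symbols.

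Mitochondrial members charge the tRNAs that serve the few proteins encoded in mitochondrial DNA, all parts of the oxidative phosphorylation machinery. Their log2 fold changes ran from -0.15 to 0.33, 8 below and 7 above 0, with a median of -0.004, which with plain totals was 0.023. Summed, the 15 members were at 292.7 and 290.3 CPM in MUT, against 298.4 and 289.3 CPM in WT, so the genotypes overlapped. In 7 of the 15 members the libraries did not overlap, 3 higher and 4 lower in MUT. The share among all tested symbols was 45.6% (23.0% higher and 22.6% lower).

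Iars2, the mitochondrial isoleucyl enzyme, had the smallest p of the 35 members. It was at 34.01 and 33.89 CPM in MUT, against 28.26 and 27.68 CPM in WT, with replicates that differed by far less than the genotypes. The difference was 1.21-fold (95% interval 1.08 to 1.36; log2 fold change 0.28, SE 0.0801, limma adjusted p = 0.113), between 0.22 and 0.30 in all alternatives, none of which called it. Iars2 lies on chromosome 1, minus strand, from 185284726 to 185329396, and 22.89% of its exon length overlaps exons of Rab3gap2 on the opposite strand. The library kit is a stranded one, but whether strand was used in counting is not stated in the labels. Rab3gap2, a regulator of a vesicle GTPase, was at 45.17 and 43.91 CPM in MUT, against 44.73 and 46.68 CPM in WT, with overlap (log2 fold change -0.04, limma adjusted p = 0.873).

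Wars2, for tryptophan, was at 3.178 and 3.665 CPM in MUT, against 2.863 and 2.393 CPM in WT. Both MUT libraries were higher, but they rest on 155 and 150 reads against 193 and 119, and the interval was the widest but for that of Pars2 (1.25-fold, 95% interval 1.01 to 1.55, limma adjusted p = 0.305). Its log2 fold change of 0.33 was 0.22 without WT 2. The methionyl enzyme Mars2 was at 13.43 and 13.93 CPM in MUT, against 13.22 and 13.09 CPM in WT (1.04-fold, limma adjusted p = 0.846). Hars2, whose exons overlap those of Hars on the opposite strand by 195 nt, was at 10.05 and 9.358 CPM in MUT, against 9.804 and 8.967 CPM in WT, with overlap.

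On the lower side, the asparaginyl enzyme Nars2 was at 6.725 and 7.061 CPM in MUT, against 7.357 and 8.002 CPM in WT (0.904-fold, limma adjusted p = 0.585). Its cytosolic counterpart Nars lay on the other side, so the Nars to Nars2 ratio per kb was 6.56 and 6.22 in MUT and 5.57 and 4.67 in WT, without overlap. Fars2 was at 64.79 and 64.36 CPM in MUT, against 69.13 and 67.63 CPM in WT (0.945-fold, limma adjusted p = 0.628). Tars2 was at 32.15 and 30.35 CPM in MUT, against 32.36 and 34.28 CPM in WT (0.939-fold, limma adjusted p = 0.645). Ears2, the glutamyl enzyme, was at 10.58 and 10.51 CPM in MUT, against 11.69 and 11.0 CPM in WT (0.933-fold, limma adjusted p = 0.692). All 4 were lower in both MUT libraries.

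**Figure D4:**
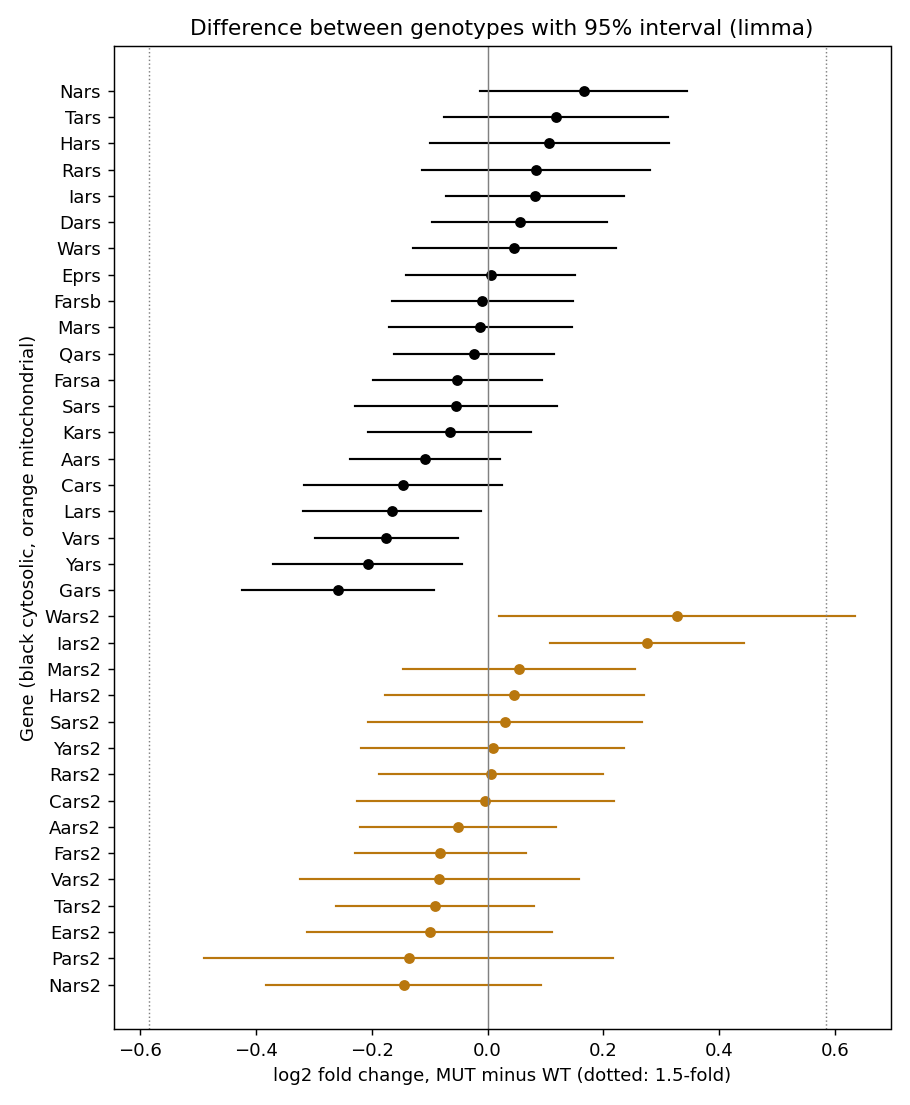
Log2 fold change, MUT minus WT, with the 95% interval of limma's fit for each member, cytosolic in black and mitochondrial in orange; dotted lines mark 1.5-fold. The interval of Wars2 alone crosses a dotted line, and those of Gars, Vars, Yars, Lars, Iars2 and Wars2 do not cross 0.

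Of the remaining 17 members, Cars, Aars, Kars and Qars were lower and Dars was higher in both MUT libraries. The cysteinyl enzyme Cars was at 28.29 and 30.1 CPM in MUT, against 32.41 and 32.29 CPM in WT. Aars was at 200.3 and 202.5 CPM in MUT, against 218.3 and 215.8 CPM in WT, and 14.29% of its exon length is shared with Exosc6 on the same strand. The log2 fold changes of Eprs, Mars, Qars, Dars, Kars and Rars of the complex lay between -0.07 and 0.08, and those of Aars, Cars, Sars and Wars between -0.15 and 0.05. Those of Aars2, Cars2, Pars2, Rars2, Sars2, Vars2 and Yars2 lay between -0.14 and 0.03. Adjusted p-values of these 17 ranged from 0.422 for Cars to 0.992 for Cars2.

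By structural class, the 17 members of class I and the 17 of class II, which differ in the fold of their catalytic core, had medians of -0.004 and -0.052 with no call in either. Across the 35 members the log2 fold change had a Spearman correlation of -0.46 with the GC content of the longest transcript, and of -0.21 across all 14778 tested symbols with an annotation. The same correlation with transcript length was -0.11 for the members and 0.18 for all symbols. The points share the same 4 libraries, so these values are descriptions.

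The 12 cytosolic members listed as ATF4 targets (Aars, Cars, Eprs, Gars, Iars, Lars, Mars, Nars, Sars, Tars, Wars and Yars) split into 5 above and 7 below 0, with a median of -0.033 and no call. Atf4 itself was at 37.05 and 41.9 CPM in MUT, against 37.39 and 37.7 CPM in WT, with overlap (log2 fold change 0.07, limma adjusted p = 0.747). Of 29 tested genes of the amino acid response other than synthetases, 1 was called higher and 0 lower, and the median log2 fold change was 0.055. The called gene was Gpt2, the mitochondrial alanine aminotransferase, which interconverts alanine and glutamate. It rose to 79.83 and 84.41 CPM in MUT from 63.26 and 63.45 CPM in WT (1.29-fold, limma adjusted p = 0.0159), and was not called without MUT 2 (limma adjusted p = 0.101).

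Short promoter sequences are shown because ATF4 dimers bind a DNA word that begins TGATG in the starts of such genes. RefSeq promoter windows (GRCm38.p6, 250 bases before to 50 after a start) were at hand for 26 of the 35 members. The word TGATGNAA on either strand was in 5 of their 27 windows (18.5%), in 3.97% of all 32851 windows and in 2.51% of the 14689 windows of tested genes. In Aars, Gars and Tars it lies before the RefSeq start, in Aars with another just after it. In Iars and Yars it lies just after the start. The windows below read 5′ to 3′ on the strand of the gene, with the word, here in its reverse complement TTNCATCA, in capitals.
Aars (chr8:111033714-111033753, plus strand): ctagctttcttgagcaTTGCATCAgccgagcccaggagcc
Gars (chr6:55037955-55037994, plus strand): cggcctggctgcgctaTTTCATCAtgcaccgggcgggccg
Tars (chr15:11399659-11399689, minus strand): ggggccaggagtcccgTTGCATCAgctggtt

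The word begins 112 bases before the RefSeq start in Aars, 30 before it in Gars and 15 before it in Tars. The Aars window lies inside the GENCODE gene, which begins further upstream, at 111033144. Members with the word TGATGNAA did not lie on 1 side: the log2 fold changes were -0.11 for Aars, -0.26 for Gars, 0.12 for Tars, 0.08 for Iars and -0.21 for Yars. The E-box CACGTG, the word of the MYC family of growth regulators, was in 5 of the 27 windows (18.5%), in 7.15% of all windows and in 9.31% of those of tested genes. It lies before the start in Aars, Farsb and Iars and after it in Ears2 and Tars. It is shown for Farsb and Iars, with the word in capitals, as a subunit gene and a complex member.
Farsb (chr1:78488915-78488952, minus strand): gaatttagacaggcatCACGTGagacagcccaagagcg
Iars (chr13:49682045-49682082, plus strand): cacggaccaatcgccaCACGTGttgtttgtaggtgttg

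The ETS word CCGGAAGT was in 3 of the 27 windows (11.1%), in 3.89% of all windows and in 6.93% of those of tested genes. The cyclic AMP response element TGACGTCA and the NRF1 palindrome were in 0 of the 27 and in 1.79% and 0.971% of all windows, or 2.88% and 1.79% of those of tested genes. A match is a description of letters, not a measured site.

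Of 19 genes that act beside these enzymes (complex scaffolds, the remaining synthetases, amidotransferase subunits, tRNA editing and release), 0 were called higher and 1 lower. The lower one was Lars2, the mitochondrial leucyl enzyme, at 437.0 and 457.7 CPM in MUT, against 1123 and 872.7 CPM in WT (log2 fold change -1.15, limma adjusted p = 1.37e-07). None of the 15 mitochondrial members was called.

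In the elongation list 0 of 15 tested genes were called, with a median log2 fold change of 0.011. Valyl-tRNA synthetase is known to bind elongation factor 1, and the genes for its subunits Eef1d and Eef1g had the smallest p-values of the list. Eef1d was at 741.4 and 681.4 CPM in MUT, against 795.8 and 786.5 CPM in WT (log2 fold change -0.15, limma adjusted p = 0.233). Eef1g was at 474.9 and 421.8 CPM in MUT, against 498.4 and 504.3 CPM in WT (-0.16, limma adjusted p = 0.24). Neither overlapped between genotypes. The other tested genes of elongation factor 1 were not lower in MUT. Eef1b2 overlapped between genotypes (log2 fold change 0.0114, limma adjusted p = 0.963). Eef1a1 was higher in both MUT libraries (0.0996, limma adjusted p = 0.472). Mtif2, a mitochondrial initiation factor, was at 15.05 and 14.81 CPM in MUT, against 13.14 and 12.45 CPM in WT (0.22, limma adjusted p = 0.302). Among 25 genes of tRNA processing and modification 0 were called, with a median of -0.017. The CCA-adding enzyme Trnt1, which completes the tRNA end that synthetases charge, was at 49.41 and 49.79 CPM in MUT, against 53.32 and 59.87 CPM in WT (-0.19, limma adjusted p = 0.267). Thg1l, which prepares histidine tRNA for its synthetase, was at 18.88 and 18.94 CPM in MUT, against 22.37 and 21.49 CPM in WT (-0.21, limma adjusted p = 0.272). Trmt1, a tRNA guanine methyltransferase, was at 90.56 and 97.27 CPM in MUT, against 103.6 and 105.4 CPM in WT (-0.15, limma adjusted p = 0.302).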

How the data were processed

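The authors deposited 1 table of CPM for 24420 symbols in 4 libraries. The tools named, with no role or order, are HTSeq 0.6.0, TopHat2 2.0.10 and edgeR 3.8.6, with build mm10, per the submitters' processing notes. Every value was a whole multiple of its library's smallest value (100% within 0.001 of a read), which gave back the reads. Replicates differed beyond counting noise (chi-square divided by its degrees of freedom 5.87 in MUT and 11.6 in WT), so they were not treated as 1 library deposited in duplicate. The edgeR test on these reads called 75 symbols higher and 41 lower.

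Symbols with at least 1 CPM in at least 2 libraries were kept. Values of log2(CPM + 0.5) were tested with limma 3.58.1 (lmFit, eBayes with trend) in R 4.3.3. Tests were two-sided, and p-values were adjusted by Benjamini and Hochberg's method over the 15364 symbols tested. Fold changes are on that scale, which understates the change of low genes. The procedure was also run on simulated data, and no result here rests on that run. Alternatives used other pseudocounts, filters, scalings, variances, edgeR 4.0.16 and DESeq2 1.42.0 on reads, a replicate block, and each library left out. Gene positions, exon lengths and GC content come from GENCODE vM21 (GRCm38, called mm10), with 96.19% of tested symbols matched.

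The members and lists were chosen with earlier results of these data known. Genes named were all members, with full values for the 4 smallest p-values in each direction and compartment, the highest and lowest levels, Farsa and Farsb and the extreme pairings, called genes or the 3 smallest p-values of each further list, and Aimp1, Aimp2, Eef1e1, Lars2 and Atf4. A further gene of this rule is not reported here. Rab3gap2 was added for its overlap with Iars2, and Tarsl2 as another threonyl gene beside Tars.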

Additional observations from a re-analysis of the deposited data

How the results depend on the processing

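The count of synthetases called was 0 higher and 0 lower in every alternative except 1 lower without WT 1 (range 0 to 1 when a library was left out). A group left with 1 library is assumed to vary like the other. Over all symbols, the counts called higher and lower were 74 and 41, and with no filter on low values they were 7 and 4. They were 122 higher with plain library totals, 35 and 18 after quantile normalization, 113 higher without the 100 most abundant symbols, 5 and 2 without the variance trend, 71 lower with DESeq2 and 41 higher with the GC and length trend removed. Leaving out a library gave 67 to 133 higher and 42 to 177 lower. The replicate block gave 57 higher and 31 lower and called 0 synthetases. The numbers share only a label, and differences between replicates correlated at -0.134 across genes. The crossed replicate block, chosen after seeing the data, gave 131 and 104.

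The median log2 fold change of cytosolic members was -0.0183, and 0.0102 with plain totals, 0.004 without the 100 most abundant symbols, -0.0368 with the GC and length trend removed and -0.0365 to -0.0143 with a library left out. That of mitochondrial members was -0.0039, and 0.0235 with plain totals and -0.0505 to -0.0155 with a library left out. With the longest transcript as length the median level was 15.5 CPM per kb for cytosolic and 3.25 for mitochondrial members, and the median ratio 2.93. The cause was not tested.

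Of the 35 members, 21 kept the sign of their log2 fold change in every alternative run (18, or 17 for Wars2 and Pars2, which did not pass the filter at 5 CPM) and 14, with log2 fold changes between -0.08 and 0.08, did not. With the GC and length trend removed, Aars2 was 0.0329, Mars 0.0061, Eprs -0.0543, Mars2 -0.0449, Rars2 -0.0109 and Yars2 -0.0086. After quantile normalization Rars2 was -0.0108 and Yars2 -0.0143. Plain totals moved the median of all symbols from -0.0016 to 0.0258, and totals without the 100 most abundant symbols moved it to 0.02, so a change of sign within that shift is shared by all symbols. With plain totals Cars2 was 0.0235, Farsb 0.0195, Mars 0.0161 and Qars 0.0044, the only alternative in which Qars changed sign. Without the 100 most abundant symbols Cars2 was 0.0177, Farsb 0.0133 and Mars 0.0099. With a library left out the ranges were -0.1552 to 0.0532 for Aars2, -0.0783 to 0.0705 for Cars2, -0.0766 to 0.0867 for Eprs, -0.0607 to 0.0428 for Farsb, -0.0152 to 0.107 for Hars2, -0.0586 to 0.0339 for Mars, -0.0269 to 0.1951 for Rars, -0.0983 to 0.1091 for Rars2, -0.126 to 0.1857 for Sars2, -0.2151 to 0.0484 for Vars2, -0.0128 to 0.1049 for Wars and -0.0676 to 0.0857 for Yars2. Gpt2 was also not called without the filter on low values or without the variance trend (limma adjusted p = 0.139 and 0.199), and Lars2 not without the variance trend (0.0746).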
